A study of Homo sapiens with 24 samples.

Results

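The comparison set 2 human breast cancer cell lines with a mesenchymal-like expression pattern, BT549 and MDAMB231, against 2 with a basal-like, epithelial pattern, HCC1806 and MDAMB468. All 12 libraries of the comparison, of 24 in the series, came from cells carrying a non-targeting short hairpin RNA (shNT), with 3 biological replicates per line. Genes were chosen by 1 rule: an adjusted p under 0.05 with the same direction in each of the 4 pairs formed by a mesenchymal-like and a basal-like line. Of 19537 genes tested, 3194 met it. The division into classes is that of the comparison and is not given in the labels, which name only the line. The other 12 libraries, from the same lines with a hairpin against ADAR1 (shADAR1), an RNA-editing enzyme encoded by ADAR, had no part in choosing the genes and served for a second look at them and for a test of change between hairpins.

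Every culture, controls included, had received lentivirus (24 h) followed by 72 h of puromycin (2 µg/ml) to kill uninfected cells, so no library represents untreated cells. Total RNA (1 µg per library) was depleted of ribosomal RNA before sequencing. The series describes the lines as triple-negative breast cancer, a class defined by the lack of oestrogen and progesterone receptors and of HER2 amplification. All 4 are established lines, and each class held only 2 of them. The p-values of the pair tests measure the spread between cultures of a line, and the labels do not say how the biological replicates were separated.

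Epithelial cells are held in sheets by junctions built on E-cadherin, and they express keratins as their intermediate filaments. In the epithelial-mesenchymal transition (EMT), transcription factors such as ZEB1 and ZEB2 bind E-box motifs in epithelial genes and repress them, while vimentin replaces keratins. The miR-200 family of microRNAs targets the messenger RNAs of ZEB1 and ZEB2, and ZEB1 in turn represses the miR-200 genes.

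The mature sequences of the family are shown because the hairpin genes and both of their best known targets fell on opposite sides of the comparison. They are from RefSeq (GRCh38.p14), 5′ to 3′, with the seed (bases 2 to 8) in capitals, and form 2 groups by seed. The first group has the seed AAUACUG.
hsa-miR-200b-3p: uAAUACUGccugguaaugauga
hsa-miR-200c-3p: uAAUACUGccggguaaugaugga
hsa-miR-429: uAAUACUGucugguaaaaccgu
The second group has the seed AACACUG.
hsa-miR-200a-3p: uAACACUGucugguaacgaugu
hsa-miR-141-3p: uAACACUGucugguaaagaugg

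Library totals ran from 10370645 reads (MDAMB231 replicate 1) to 68987414, and reads from the mitochondrial genome took 3.15% to 6.07%. The first principal component of the shNT libraries, with 39.6% of the variance, separated the classes, and the next components held 30% and 23.1%. ADAR, the target of the other arm, averaged 512, 290, 353 and 427 CPM (read counts scaled to a library's size) in the shNT libraries of BT549, MDAMB231, HCC1806 and MDAMB468, and 134, 64.0, 117 and 155 CPM in their shADAR1 libraries. CPM values here are scaled by the trimmed mean of M-values (TMM). Line means are given in that order of lines throughout. Summed levels of 13 blood, endothelial and fat cell markers were 2.45 to 2.85 CPM in BT549, 10.3 to 13.7 in MDAMB231, 4.22 to 9.39 in HCC1806 and 8.68 to 10.3 in MDAMB468. Of the 9 markers tested, 1 met the rule (11.1%, beside 16.3% of all genes tested). It was ITGAM, a myeloid integrin (0.190, 0.0719, 0.756 and 0.945 CPM), and its call was lost without HCC1806 replicate 2 (adjusted p = 0.137). PTPRC, CD3E and HBB were each below 0.6 CPM in every line.

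The 4 marker genes separated the classes in the direction that the class names imply. VIM, which encodes the intermediate filament vimentin (chromosome 10, 17228259 to 17237593, plus strand), was measured at 2551, 2384 and 1933 CPM in BT549 and at 4642, 4387 and 3762 in MDAMB231. It was at 7.35, 14.9 and 1.67 CPM in HCC1806 and at 8.24, 9.47 and 7.39 in MDAMB468. No library of one class reached the range of the other, and the smallest ratio of line means was 274-fold. In RNA from whole cultures, fewer expressing cells and less RNA per cell cannot be told apart. The class difference, the mean log2(CPM + 1) of the mesenchymal-like lines minus that of the basal-like lines with equal weight per line, was 8.58 (SE 0.386; largest of the 4 adjusted p-values 8.13e-06, edgeR quasi-likelihood test).

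ZEB1, a zinc-finger repressor of epithelial genes (chromosome 10, 31318495 to 31529814, plus strand), was at 120, 125 and 135 CPM in BT549 and 140, 120 and 132 in MDAMB231. The basal-like libraries held 1.87, 2.41 and 1.80 CPM in HCC1806 and 0.233, 0.214 and 0.343 in MDAMB468. The mesenchymal-like lines thus shared nearly one level, while the basal-like lines differed from each other. The class difference was 6.05 (SE 0.0638; largest adjusted p = 4.6e-14).

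CDH1, which encodes E-cadherin (chromosome 16, 68737225 to 68835548, plus strand), had 16 reads in all 3 BT549 libraries together and 10 in those of MDAMB231. It was at 253, 229 and 268 CPM in HCC1806 and at 195, 196 and 189 in MDAMB468. The class difference was -7.67 (SE 0.05; largest adjusted p = 1.14e-14).

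EPCAM, an epithelial adhesion molecule (chromosome 2, 47345158 to 47387601, plus strand), showed the uneven pattern that recurred among the epithelial genes. BT549 had 0 reads in its 3 libraries, and MDAMB231 held 7.92, 10.7 and 7.94 CPM. HCC1806 was at 297, 284 and 315 CPM and MDAMB468 at 273, 253 and 254. Even MDAMB231 lay 29.4-fold below the nearer basal-like line, and the class difference was -6.48 (SE 0.0697; largest adjusted p = 1.12e-12).

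**Figure D1:**
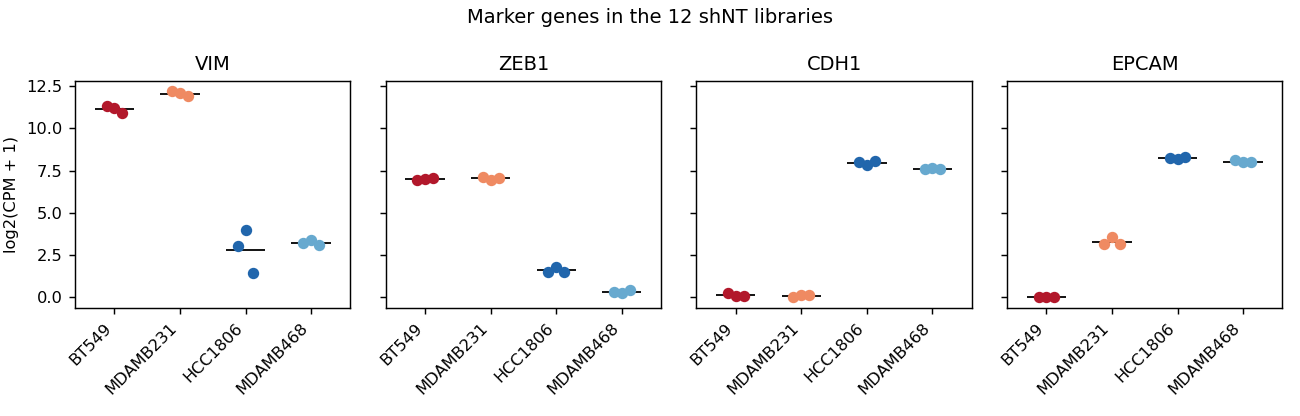
Levels of VIM, ZEB1, CDH1 and EPCAM as log2(CPM + 1) (vertical axis) in the 12 shNT libraries by line (horizontal axis); points are libraries and bars line means. VIM and ZEB1 were high in BT549 and MDAMB231, CDH1 and EPCAM in HCC1806 and MDAMB468, and EPCAM was at 0 in BT549 but not in MDAMB231.

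Across the transcriptome, 1435 genes were higher in both mesenchymal-like lines than in both basal-like lines (7.35% of genes tested) and 1759 were lower (9%). Requiring at least a 2-fold difference in each of the 4 pairs left 649 higher (3.32%) and 990 lower (5.07%). At the largest sizes, 98 genes were higher and 298 lower by at least 16-fold in every pair. Every one of the 4 pairs on its own called between 11871 and 12801 genes, and 5200 genes were called in all 4, of which 2006 did not keep one direction. Lines of the same class differed about as often, since BT549 against MDAMB231 called 11424 genes (58.5%) and HCC1806 against MDAMB468 12710 (65.1%).

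Among the 3194 genes, 1721 (53.9%) also differed between BT549 and MDAMB231 and 1855 (58.1%) between HCC1806 and MDAMB468, near the shares of all genes tested (58.5% and 65.1%). The library ranges of the classes did not overlap in 1335 of the 1435 higher and 1669 of the 1759 lower genes. Over all 19537 genes tested, 1586 and 1967 were separated in these directions. The rule that chose the genes makes such separation likely, so it is no added support for single genes. Near-absence from one class was seen on both sides: 283 of the lower genes and 143 of the higher genes were under 0.1 CPM in both lines of the low class, and 37 and 11 of them were also at 5 CPM or more in both lines of the high class. Such genes could pass the filter on low counts only through the class where they were high, so these counts are partly set by the filter and the rule. The share over all genes tested was not counted.

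A test with the line as the replicate, 2 against 2 (limma on line means), called 0 genes, with a smallest adjusted p of 0.0648 for KRT5 and 1211 genes at an unadjusted p under 0.05 where 977 would be expected. The edgeR test on counts summed per line also called 0, with 1295 genes at an unadjusted p under 0.05. The results therefore describe these 4 lines. The gene nearest inside the threshold, ENSG00000272403, averaged 0.281, 0.276, 0.0697 and 0.0263 CPM (adjusted p = 0.049982), and the nearest outside, RNVU1-2, 0.00775, 0.0288, 0.272 and 0.383 CPM (0.050092).

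**Figure D2:**
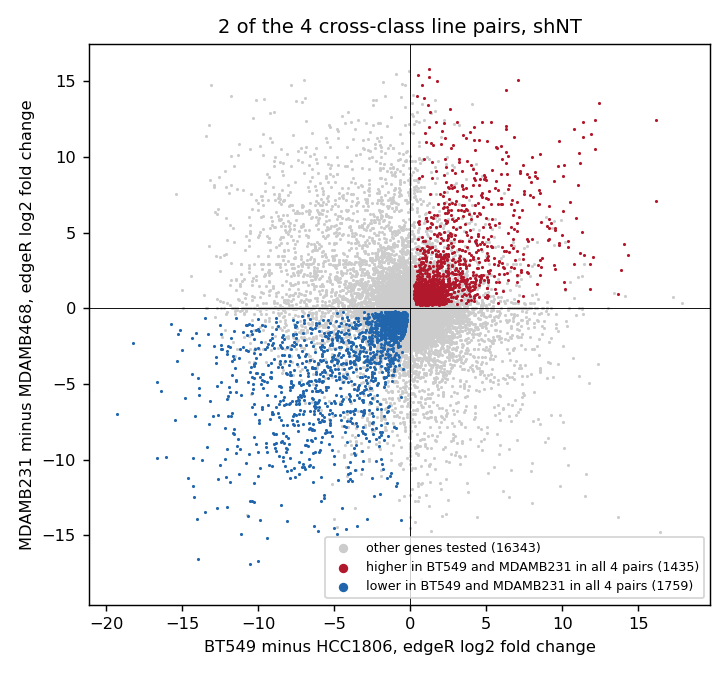
edgeR log2 fold changes of BT549 against HCC1806 (horizontal axis) and of MDAMB231 against MDAMB468 (vertical axis), 1 point per gene tested. The 1435 genes higher (red) and 1759 lower (blue) in all 4 pairs lie in 2 quadrants by construction, among 16343 other genes (grey).

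**Figure D3:**
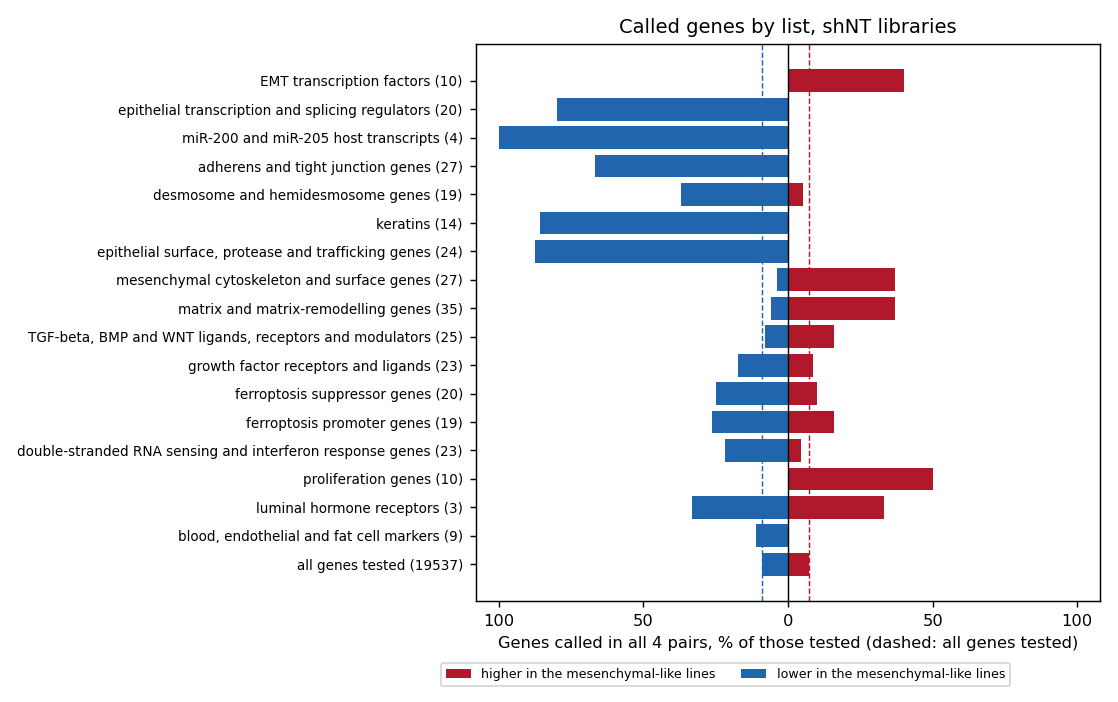
Genes meeting the rule as a percentage of the members tested in each list (number in brackets), higher to the right and lower to the left; dashed lines mark all genes tested (7.35% and 9%). Epithelial lists had called members almost wholly on the lower side, and the matrix and mesenchymal lists mostly on the higher side.

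Of the 10 EMT transcription factors, 4 were higher in the mesenchymal-like lines and 0 lower, with a median class difference of 2.13 beside -0.04 over all genes tested. Of all genes tested, 7.35% were higher and 9% lower, and the counts of this and the following lists are to be read beside these shares. ZEB2, a paralogue of ZEB1, was at 63.0, 62.4 and 71.5 CPM in BT549 and 23.7, 29.6 and 28.6 in MDAMB231, and HCC1806 held 1.17, 0.711 and 0.134 CPM. MDAMB468 had 1 read in its 3 libraries. The ranges did not overlap, and the class difference was 5.08 (SE 0.149; largest adjusted p = 1.4e-07).

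PRRX1, a homeobox factor, was mainly a BT549 gene, with 48.3 CPM there and 0.994 in MDAMB231 against 0 and 0.0428. The best known EMT factors beyond the ZEB genes did not divide by class. SNAI2 averaged 74.1, 15.2, 50.6 and 0 CPM, and SNAI1 stayed between 1.84 and 5.88 CPM. TWIST1 was at 113 CPM in BT549 but had 0 reads in MDAMB231, below the 6.47 CPM of HCC1806.

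Of 8 miR-200 and miR-205 genes listed, 4 could be tested, MIR200CHG, MIR200A, MIR200B and MIR429. Their reads were confined to the basal-like lines, and all 4 met the rule. Without reads in BT549 and MDAMB231, they could pass the filter on low counts only through the basal-like lines. A call in the lower direction was then the only one possible, so the count of 4 is no separate support. MIR200CHG, the host transcript of miR-200c and miR-141 (chromosome 12, 6963246 to 6964447, plus strand), had 0 reads in the 6 mesenchymal-like libraries. It was at 1.44, 1.26 and 1.88 CPM in HCC1806 and 0.505, 1.03 and 1.05 in MDAMB468. Against the level that 3 reads over a line's 3 libraries would give, this was at least 29.2-fold lower (largest adjusted p = 2.46e-05). MIR429, MIR200A and MIR200B, on chromosome 1, had 0 reads in BT549 and MDAMB231, and line means in the other lines of 0.563 to 1.29 CPM. These levels are low, they come from longer RNA over the hairpins, and the mature microRNAs were not measured. MIR141, which was too low to test, had 4 reads in MDAMB231, 8 in HCC1806 and 9 in MDAMB468.

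Target sites for both seeds were then counted in the 3′ UTRs of the annotated transcripts (GENCODE 29, GRCh38), a search chosen after the values were known. The 2549-base 3′ UTR of ZEB1 held 6 copies of CAGTATT, the complement of the AAUACUG seed, and 3 of CAGTGTT, that of AACACUG. The 5370-base 3′ UTR of ZEB2 held 5 and 4. Examples follow, read 5′ to 3′ on the strand of the gene (plus for ZEB1, minus for ZEB2; GRCh38), with the seed match in capitals, to show how the sites pair with the microRNAs printed above.
ZEB1 chr10:31528562-31528584: tgtcttcaaacctggCAGTATTa
ZEB1 chr10:31528031-31528053: caaaatcatcagaatCAGTGTTt
ZEB2 chr2:144388989-144389011: cgcactacaatgcatCAGTATTa
ZEB2 chr2:144388669-144388691: cctttgcaccagcttCAGTGTTa
At least 3 copies of CAGTATT were present in 0.971% of the 3′ UTRs of all genes tested, and of CAGTGTT in 1.23%. At least 1 CAGTATT was found in 21.6% of the genes higher in the mesenchymal-like lines, 15.9% of the lower genes and 17.8% of all. The 3′ UTRs of the higher genes were also longer (median 1608 bases, against 1288 for the lower and 1273 for all genes), and the part of length in these shares was not tested.

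Regulators of epithelial transcription and splicing moved the other way as a list: 16 of 20 were lower in the mesenchymal-like lines and 0 higher, with a median class difference of -3.49. GRHL2, a grainyhead factor that maintains epithelial junction genes, was at 0.618, 0.560 and 0.977 CPM in BT549 and 0, 0.174 and 0.0215 in MDAMB231. Its levels were 170, 143 and 174 CPM in HCC1806 and 154, 146 and 141 in MDAMB468. The classes were far apart and the basal-like lines close to each other (class difference -6.85, largest adjusted p = 8.17e-13).

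ESRP1, which directs epithelial splicing, averaged 0.440 and 0.939 CPM against 165 and 146, at least 155-fold apart in each pair of line means. GATA3 and FOXA1, luminal transcription factors, met the rule with 0.304, 10.3, 106 and 89.1 CPM and with 3.44, 5.46, 45.3 and 73.8 CPM. The 4 genes of the list that did not meet it were ELF5, KLF4, TP63 and SPDEF. TP63, a basal-cell factor, was at 173 CPM in HCC1806 and at 1.53, 1.09 and 0.988 in the other lines.

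Among junction genes, 18 of 27 adherens and tight junction genes and 7 of 19 desmosome and hemidesmosome genes were lower in the mesenchymal-like lines, with medians of -3.25 and -3.26. CRB3, an apical polarity protein, averaged 0.0617 and 0.158 CPM against 31.2 and 19.5 (class difference -4.53, SE 0.0845). DSC3, a desmosomal cadherin, had 0 reads in BT549 and 1 in MDAMB231, and it was at 62.0, 57.1 and 44.7 CPM in HCC1806 and 84.5, 64.5 and 71.6 in MDAMB468. Its groups did not overlap (class difference -5.99, largest adjusted p = 3.81e-12).

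Desmoplakin (DSP), which links desmosomes to keratin filaments, again separated the mesenchymal-like lines from each other. BT549 held 2.49, 2.42 and 1.42 CPM and MDAMB231 156, 256 and 206, while the basal-like libraries held 1031 to 1346 CPM. JUP, or plakoglobin, was alike in this, with line means of 2.62, 65.7, 710 and 383 CPM. Catenins and scaffold proteins that many cell types use did not meet the rule: TJP1 averaged 121, 219, 261 and 213 CPM, CTNNB1 306, 441, 397 and 415, and CTNND1 412, 269, 642 and 377. DST, a spectraplakin that also has non-epithelial forms, was the 1 member of the desmosome list that was higher (752 and 1783 against 605 and 252 CPM, largest adjusted p = 0.013). Genes of the hemidesmosome and its laminin followed the line, with ITGB4 at 0.630, 324.5, 1289 and 91.3 CPM and LAMB3 at 20.1, 590.2, 3720 and 10.3.

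Keratins were lower in 12 of 14 cases, with a median class difference of -5.09, and KRT5 had the largest difference of all genes (-10.2). KRT5, a basal keratin on chromosome 12, had 12 reads in BT549 and 1 in MDAMB231. HCC1806 held 1340, 1187 and 1164 CPM and MDAMB468 1343, 1207 and 1154, and these did not differ detectably from each other (adjusted p = 0.988). The largest adjusted p over the 4 pairs was 5.9e-13. KRT17 was absent from BT549 (0 reads) and averaged 0.742 CPM in MDAMB231, against 196 in HCC1806 and 427 in MDAMB468.

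Simple keratins KRT7, KRT8, KRT18 and KRT19 met the rule with a different shape. They averaged 208, 462, 220 and 280 CPM in MDAMB231, and KRT8 for example was 2.03-fold below HCC1806 there but at 0.679 CPM in BT549. Per kilobase of listed gene length, the highest keratin in HCC1806 was KRT6A (600 RPKM) and in MDAMB468 KRT19 (633 RPKM), while KRT6A was at 1.06 RPKM in MDAMB468. The exceptions were KRT80 (120, 142, 46.4 and 103 CPM) and KRT81 (0.246, 37.2, 1.60 and 273 CPM). Reads of keratin paralogues may be split among near-identical copies, and KRT8 overlaps KRT18 on the opposite strand, so values of single keratins are uncertain.

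Epithelial surface, protease and trafficking genes were lower in 21 of 24 cases, with a median of -4.55. ST14 encodes matriptase, a membrane protease, and stood at 0.0353, 0.0757 and 0.140 CPM in BT549 and 0.377, 0.652 and 0.580 in MDAMB231. In the basal-like lines it was at 346, 353 and 332 CPM in HCC1806 and 407, 372 and 353 in MDAMB468. The smallest ratio of line means was 641-fold (class difference -8.13, largest adjusted p = 3.26e-15). SPINT1, an inhibitor of that protease, followed with 0.0160, 2.05, 198 and 151 CPM, and RAB25, an epithelial trafficking GTPase, with 0.135, 0.0432, 43.3 and 65.6.

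MYH14, a non-muscle myosin, averaged 0.0932 and 0.144 CPM against 437 and 232. TRIM29 had 2 reads in BT549 and 18 in MDAMB231 and averaged 303 and 168 CPM in the basal-like lines. The 3 members of the surface list that did not meet the rule were SPINT2, MUC1 and SCNN1A, and SPINT2 averaged 0.225, 169, 134 and 267 CPM.

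The promoters of the lower genes were searched for the E-box CACCTG, which ZEB and SNAI factors can bind, on both strands (CACCTG or CAGGTG), in RefSeq windows from 250 bases before to 50 after a gene's most upstream start (GRCh38.p14). The search was chosen after the values were known. The CRB3 window held 5 copies and the DSP window 2, and the 250 bases before each start are shown with the copies in capitals, as 2 examples of windows with repeated motifs. The windows of CDH1, EPCAM and ST14 were not analysed here.
CRB3 chr19:6464021-6464270, plus strand: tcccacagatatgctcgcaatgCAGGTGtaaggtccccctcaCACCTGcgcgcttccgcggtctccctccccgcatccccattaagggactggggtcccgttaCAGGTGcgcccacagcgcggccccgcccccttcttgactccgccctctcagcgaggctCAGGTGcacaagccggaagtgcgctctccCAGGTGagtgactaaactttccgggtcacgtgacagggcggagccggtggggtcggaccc
DSP chr6:7541421-7541670, plus strand: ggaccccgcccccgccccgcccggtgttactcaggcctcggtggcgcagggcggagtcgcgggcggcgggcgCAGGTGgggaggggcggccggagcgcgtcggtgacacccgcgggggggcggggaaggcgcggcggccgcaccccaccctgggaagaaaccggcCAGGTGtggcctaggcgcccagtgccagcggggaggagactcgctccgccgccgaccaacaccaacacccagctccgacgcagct
At least 1 copy was found in 27.4% of 1272 lower genes with a window, 13.9% of 1084 higher genes and 19.4% of all 13210. At least 2 copies were found in 7.47%, 0.923% and 2.95%. Among genes lower by at least 2-fold in every pair the share with 1 copy or more was 35.6% of 621, and among genes higher by at least 2-fold 14.4% of 432. The median GC content of the windows differed little, at 65.3% for the lower, 65% for the higher and 64.3% for all genes. The AP-1 motif TGANTCA was found in 6.68% of lower, 4.52% of higher and 5.31% of all windows, and the TEAD motif CATTCC (or GGAATG) in 10.8%, 12% and 11.5%. Among genes changed by at least 2-fold in every pair, TGANTCA was in 9.82% of windows of the lower and 5.56% of the higher genes, and CATTCC in 11.4% and 10.9%. These counts describe letters in a window, and binding was not measured.

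Mesenchymal cytoskeleton and surface genes were higher in 10 of 27 cases and lower in 1, with a median of 2.09. LGALS1, or galectin-1, was at 453, 426 and 275 CPM in BT549 and 332, 365 and 302 in MDAMB231, against 15.1, 18.7 and 16.8 in HCC1806 and 6.06, 3.26 and 3.95 in MDAMB468. Its smallest ratio of line means was 19.8-fold (class difference 5.19, SE 0.166). AXL, a receptor tyrosine kinase, averaged 643 and 2172 CPM against 49.99 and 0.878, and EMP3, a small membrane protein, 106 and 150 against 3.39 and 0.949.

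Beside VIM, some other well-known mesenchymal genes did not divide by class. CDH2, or N-cadherin, averaged 239, 0.2503, 29.9 and 1.31 CPM and did not meet the rule, while CDH11, another cadherin, met the rule with 772, 4.26, 0.367 and 0 CPM. CD44 was at 996 and 501 CPM in the mesenchymal-like lines and 3836 and 1328 in the basal-like lines without meeting the rule. ENG, or endoglin, a TGF-beta co-receptor, was the member that was lower (13.5 and 12.5 against 97.4 and 20.8 CPM, largest adjusted p = 0.000183).

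Matrix genes were higher in 13 of 35 cases and lower in 2, with a median of 3.02. FBN1, fibrillin-1, averaged 512 and 80.6 CPM against 5.98 and 2.53, and LOXL2, which cross-links collagen, 884 and 310 against 12.3 and 48.5. COL6A3, a collagen VI chain, was at 34.3, 31.1 and 32.3 CPM in BT549 and 73.1, 16.2 and 66.3 in MDAMB231, against 0.261 to 0.900 over the 6 basal-like libraries. Among fibril-forming collagens, COL5A1 met the rule (1922 and 204.5 against 85.4 and 0.124 CPM, largest adjusted p = 0.00132), while COL1A1, COL1A2, COL3A1 and COL5A2 did not. COL1A2 averaged 4596, 0.203, 0.0128 and 0.0549 CPM and COL3A1 2825, 0.0435, 0.151 and 0.0379, with BT549 alone at a high level. SPARC, a collagen-binding matrix protein, had the same shape (3088, 0.875, 0.0128 and 0.399 CPM) and did not meet the rule. FN1, fibronectin, did (2450 and 532.8 against 140.2 and 51.5 CPM, largest adjusted p = 0.00595). The 2 lower members were the gelatinase MMP2 (0.101 and 0.785 against 29.1 and 2.62 CPM) and the laminin chain LAMA4 (2.42 and 6.42 against 54.0 and 56.8). The MMP2 call was lost with no filter on low counts (adjusted p = 0.0558) and without MDAMB231 replicate 2 (0.0683).

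**Figure D4:**
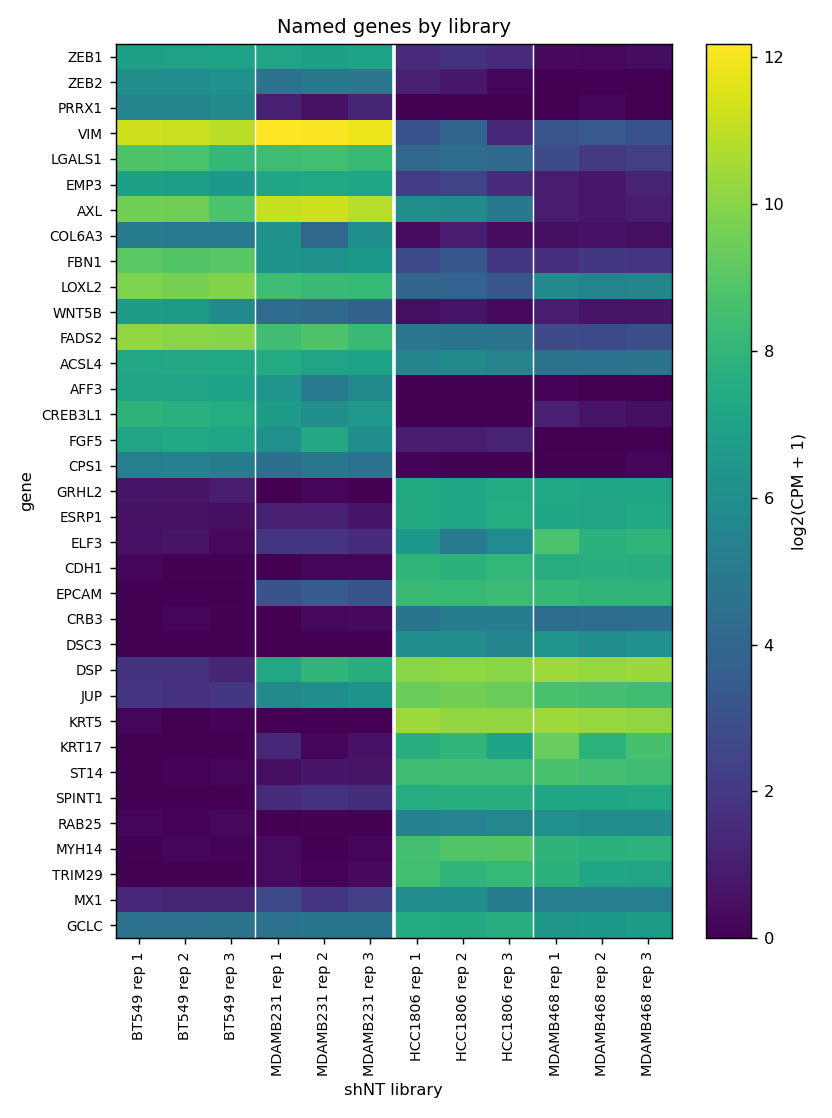
Level of 35 named genes (rows) as log2(CPM + 1) (colour) in the 12 shNT libraries (columns), with the classes divided by the wide white line. DSP and JUP are intermediate in MDAMB231 (206 and 65.7 CPM) and low in BT549 (2.11 and 2.62 CPM).

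The 10 highest-ranked genes on the mesenchymal-like side, by the smallest pair difference, were VIM, ZEB1, CREB3L1, AFF3, FGF5, BASP1, ENPP1, EMP3, ADAMTS15 and CPS1. CREB3L1, a membrane-bound transcription factor of secretory cells, was at 238, 213 and 186 CPM in BT549 and 62.8 to 105 in MDAMB231. It had 0 reads in HCC1806 and averaged 0.709 CPM in MDAMB468, 122-fold below MDAMB231. FGF5, a fibroblast growth factor, averaged 147 and 98.5 CPM against 1.05 and 0, and in HCC1806 its level was 93.5-fold below that of MDAMB231.

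ENPP1, an ectoenzyme that hydrolyses extracellular nucleotides and cGAMP, averaged 72.8 and 565 CPM against 0.303 and 1.64. CPS1, the first enzyme of the urea cycle, was at 37.0, 38.9 and 33.9 CPM in BT549 and 21.3, 29.5 and 22.1 in MDAMB231, with 6 reads in HCC1806 and 9 in MDAMB468. Its class difference of 4.86 had an SE of 0.0793 (largest adjusted p = 1.1e-12). On the basal-like side the 10 were KRT5, MYH14, ST14, H1-5, CDH1, TRIM29, KRT17, H3C11, GRHL2 and ESRP1, of which H1-5 and H3C11 are histone genes.

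Signalling genes were less clearly divided. Of 25 TGF-beta, BMP and WNT genes, 4 were higher (WNT5B, FZD2, FZD7 and BMPR1B) and 2 lower (BMP7 and WNT7B), with a median of 0.64. In either direction 24% met the rule, beside 16.3% of all genes tested (7.35% higher and 9% lower). The count of lower genes was near the share of all genes. WNT5B, a non-canonical WNT ligand, averaged 85.1 and 15.98 CPM against 0.401 and 0.684, and the receptor FZD2 148 and 51.6 against 11.97 and 15.4. BMPR1B, a BMP receptor (8.58 and 6.17 against 2.18 and 3.52 CPM), lost its call without MDAMB468 replicate 1 (adjusted p = 0.0586) or replicate 3 (0.076). TGFB1 (73.9, 176, 84.6 and 39.1 CPM) and TGFBR1 (51.9, 70.8, 29.2 and 48.9) did not meet the rule.

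Growth factor receptors and ligands were higher in 2 of 23 cases (FGFR1 and NRG1) and lower in 4 (ERBB3, DDR1, KIT and FGFBP1), with a median of -0.16. In either direction 26.1% met the rule, beside 16.3% of all genes tested (7.35% higher and 9% lower). The count of higher genes was near the share of all genes. FGFR1 averaged 242 and 203 CPM against 16.1 and 75.3. ERBB3, the kinase-impaired partner of HER2, averaged 0.730 and 4.89 CPM against 59.6 and 77.4, and DDR1, a collagen receptor, 21.9 and 52.4 against 350 and 588. EGFR was highest in MDAMB468 (5039 CPM, against 365, 642 and 585 in BT549, MDAMB231 and HCC1806). ERBB2 lay between 77.9 and 99.5 CPM in all 4 lines.

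Of the hormone receptor genes, ESR1, which encodes the oestrogen receptor, was lower in the mesenchymal-like lines (0.0118 and 0.455 against 19.0 and 7.03 CPM, largest adjusted p = 1.9e-08). PGR did not exceed 0.733 CPM in any line mean.

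The series title names lipid remodelling and ferroptosis, an iron-dependent death by lipid peroxidation, and these genes were compared at the control hairpin. Of 20 suppressor genes, 2 were higher (SCD and GSS) and 5 lower (SLC3A2, NFE2L2, MBOAT1, GCLC and GCLM). Of 19 promoter genes, 3 were higher (ACSL4, FADS1 and FADS2) and 5 lower (ALOX5, ALOX15, POR, NCOA4 and KEAP1). Medians were -0.54 and -0.18. In either direction 35% of suppressor and 42.1% of promoter genes met the rule, beside 16.3% of all genes tested (7.35% higher and 9% lower). The count of higher suppressor genes was near the share of all genes. ACSL4, which loads polyunsaturated fatty acids onto coenzyme A, was at 150, 164 and 150 CPM in BT549 and 176, 138 and 135 in MDAMB231, against 44.8, 53.3 and 42.1 in HCC1806 and 24.9, 24.0 and 24.8 in MDAMB468. The ranges did not overlap, as for most genes meeting the rule (class difference 2.13, largest adjusted p = 3.7e-09).

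FADS2, a desaturase of polyunsaturated fatty acid synthesis, had the widest gap of the ferroptosis lists. It was at 1181, 1046 and 1002 CPM in BT549 and 347, 439 and 305 in MDAMB231, against 27.6, 26.0 and 24.3 in HCC1806 and 5.98, 5.72 and 6.51 in MDAMB468 (class difference 5.496, SE 0.0914). FADS1, the partner desaturase, averaged 462 and 255 CPM against 82.7 and 9.06. The 2 genes overlap on opposite strands and the use of strand in counting is not stated, so their reads cannot be told apart where they overlap.

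GCLC, the catalytic subunit of the rate-limiting enzyme of glutathione synthesis, was at 22.7, 23.2 and 24.5 CPM in BT549 and 22.8, 25.6 and 25.3 in MDAMB231. It was at 177, 166 and 204 CPM in HCC1806 and 86.7, 89.2 and 104 in MDAMB468. The mesenchymal-like lines shared a level at least 3-fold below either basal-like line (class difference -2.39, largest adjusted p = 2.2e-10). NFE2L2, which encodes the antioxidant factor NRF2, averaged 76.0 and 79.9 CPM against 268 and 120. SLC3A2, a subunit of the cystine transporter (319 and 151 against 721 and 497 CPM), lost its call with no filter on low counts (adjusted p = 0.0717) and without BT549 replicate 2 (0.058) or MDAMB468 replicate 3 (0.0623). GPX4, the peroxidase that reduces lipid peroxides, did not meet the rule (261, 134, 162 and 87.0 CPM), nor did SLC7A11 (52.4, 87.3, 297 and 35.2).

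Genes that sense double-stranded RNA or respond to interferon were lower in 5 of 23 cases (IFIH1, EIF2AK2, OAS1 and MX1 among them) and higher in 1 (MAVS), with a median of -0.01. In either direction 26.1% met the rule, beside 16.3% of all genes tested (7.35% higher and 9% lower). MX1, an interferon-induced GTPase, was at 1.66, 1.41 and 1.395 CPM in BT549 and 5.66, 2.85 and 3.89 in MDAMB231, against 57.6, 62.3 and 33.4 in HCC1806 and 35.9, 37.1 and 37.4 in MDAMB468 (class difference -3.63, largest adjusted p = 3.7e-08). IFIH1, the sensor MDA5, averaged 3.17 and 6.54 CPM against 12.2 and 21.1, and EIF2AK2, the kinase PKR, 143 and 136 against 312 and 228. MAVS, the adaptor below the RNA sensors, averaged 501 and 316 against 171 and 265. ISG15, IFIT1, IFIT2 and IFIT3 did not meet the rule.

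Of 10 proliferation genes, 5 were higher in the mesenchymal-like lines (TOP2A, CCNB1, CCNA2, AURKA and PLK1) and 0 lower, with a median of 0.70. The shares over all genes tested were 7.35% and 9%. AURKA, a mitotic kinase, averaged 245 and 166 CPM against 79.9 and 82.7 (class difference 1.30, SE 0.0870). CCNA2, cyclin A2 (104 and 116 against 74.1 and 71.3 CPM), lost its call without BT549 replicate 2 (adjusted p = 0.0555), HCC1806 replicate 2 (0.053) or HCC1806 replicate 3 (0.0566). MKI67 averaged 1094, 1469, 1364 and 830 CPM and did not meet the rule.

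The same contrasts were run in the 12 shADAR1 libraries, which come from the same lines. Of the higher genes, 1173 of the 1432 tested there (81.9%) met the rule again in the same direction, where 7.39% of all 20188 genes did. Of the lower genes, 1445 of 1749 (82.6%) did, where the share of all genes was 8.7%. None met it in the opposite direction. Repeated calls were likely because the lines were the same, so they say nothing about other lines of either class. VIM, ZEB1, CDH1 and EPCAM had class differences of 8.29, 5.82, -7.47 and -6.54 there. The class difference changed between arms by a median of 0.106 in size over the 3194 genes, and by more than 1 in 1 of them.

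A direct test of the change of the class difference between hairpins (24 libraries, 21352 genes, edgeR) called 30 genes (0.141%), 9 of them among the 3194. This fit did not pair the libraries of the 2 hairpins, although same-numbered ones deviated together within each line. With the replicate number within each line as a block, which pairs the arms, the test called 1060. The count of 30 is therefore no upper limit. Without the block, leaving out single libraries gave 8 to 51 genes. The count moved by over 1.5 times without BT549 shNT replicates 1 (11) or 2 (8), BT549 shADAR1 replicates 1 (9) or 2 (10), HCC1806 shNT replicates 1 (46) or 2 (14), or HCC1806 shADAR1 replicates 1 (19) or 2 (19). It also did without MDAMB231 shNT replicates 1 (14), 2 (17) or 3 (14), MDAMB231 shADAR1 replicates 1 (18) or 2 (51), MDAMB468 shNT replicates 2 (17) or 3 (19), or MDAMB468 shADAR1 replicate 3 (10). ANTXR1, a receptor for extracellular matrix, had the smallest adjusted p together with HSD17B10 and met the rule at shNT. It averaged 193, 123, 23.7 and 77.7 CPM at shNT, and 86.8, 41.2, 18.2 and 41.8 CPM at shADAR1. Its class difference was 1.82 at shNT and 1.09 at shADAR1, and it did not meet the rule there (largest adjusted p = 0.899).

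**Figure D5:**
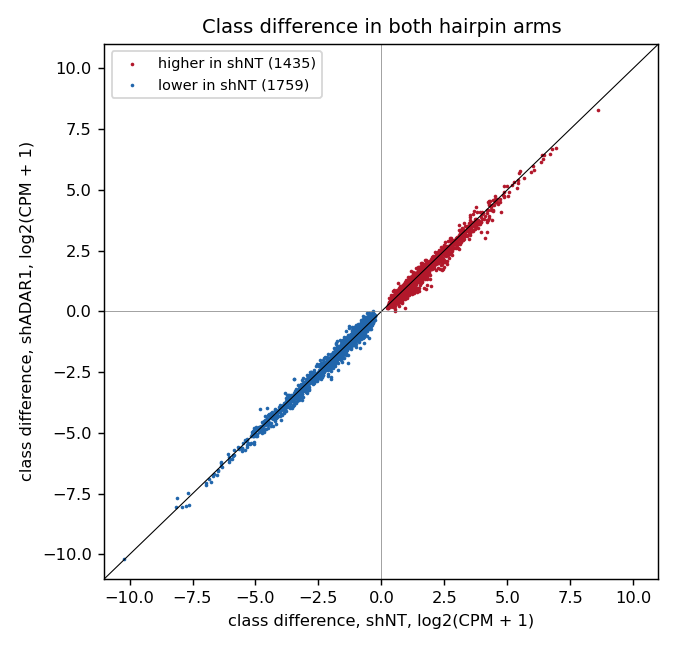
Class difference in log2(CPM + 1) of the 3194 genes in the shNT libraries (horizontal axis) and the shADAR1 libraries (vertical axis); the line marks equal values. The genes higher (red) and lower (blue) at shNT lie close to the line, with a median change of 0.106.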

How the data were processed

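The members and gene lists were chosen with earlier results of these data known. Total RNA of 24 cultures had been sequenced, and the deposited files give for each library a read count, a CPM and an RPKM per gene, per the file headers. STAR, Subread featureCounts, edgeR and bcl2fastq are named in the submitters' processing notes; genome build, annotation and use of strand are not given in the sources used here. CPM in the text is recomputed from the deposited counts with TMM scaling, and RPKM is as deposited.

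Counts of the 12 shNT libraries were fitted in edgeR 4.0.16 (R 4.3.3; filterByExpr, TMM, robust quasi-likelihood, 1 coefficient per line), leaving 19537 of 37416 genes, with Benjamini-Hochberg adjustment over all of them per pair. The fitting code was tested on simulated data. The simulated lines of a class had the same mean levels, so this cannot speak to calls that arise from differences between lines. DESeq2 1.42.0 and limma 3.58.1 served for alternatives and for the test over lines. Replicates of a line differed by more than sampling noise (lowest chi-square per degree of freedom 11.8).

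Named genes were the 4 markers and ADAR, the 10 highest and 10 lowest genes by the smallest of the 4 pair differences (at least 5 CPM in each line of the higher class, no sex-linked gene), up to 4 called members per list by the same ranking, members called against a list's usual direction, and the 3 genes with the smallest adjusted p for the change between hairpins. Other genes were named after their values were seen, and a few genes that lists and counts include are not reported here by name. Same-numbered libraries of the 2 hairpins deviated together in each line (12 correlations, 0.295 to 0.841). Only the fit with the replicate block used them as pairs, and the main test of change between hairpins did not.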

Additional observations from a re-analysis of the deposited data

Results flagged for a closer look

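Of the 30 genes whose class difference changed between the shNT and shADAR1 arms in the test of that change itself (edgeR quasi-likelihood test, 24 libraries, adjusted over 21352 genes), 4 are among the named genes. ANTXR1 changed by -0.758 (log2, SE 0.102, adjusted p = 0.0021). HSD17B10, a mitochondrial dehydrogenase, changed by 0.905 (SE 0.126, adjusted p = 0.0021) and did not meet the rule at shNT. Its shNT libraries held 28.99, 26.8 and 33.4 CPM in BT549, 11.6, 12.5 and 13.1 in MDAMB231, 24.6, 29.8 and 30.9 in HCC1806 and 34.7, 43.9 and 41.0 in MDAMB468, and its shADAR1 means were 64.2, 36.3, 37.0 and 52.8 CPM. All 4 lines were higher with shADAR1, BT549 and MDAMB231 by the larger ratios.

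TMED4, a cargo receptor of the secretory pathway, changed by 0.581 (SE 0.0936, adjusted p = 0.0108) and had shADAR1 means of 99.2, 98.4, 62.2 and 94.8 CPM. ST14 changed by 1.31 (SE 0.217, adjusted p = 0.0108), with shADAR1 means of 0.218, 1.16, 295 and 370 CPM. It remained at least 2 orders of magnitude apart between the classes, and the change rests on levels near or below 1 CPM in BT549 and MDAMB231. The ST14 call was lost without BT549 shADAR1 replicate 2 (1.13, adjusted p = 0.0585) or BT549 shNT replicate 2 (1.30, adjusted p = 0.0511).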

How the results depend on the processing

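The 1435 higher and 1759 lower genes became 649 and 990 with a 2-fold difference required in every pair, and 745 and 922 at an adjusted p under 0.001. DESeq2 gave 1520 and 1737, no filter on low counts 1526 and 1518, and a mean of at least 1 CPM 1374 and 1559. Leaving out each library in turn gave 1292 to 1529 higher and 1518 to 1709 lower genes. The test over lines called 0 genes, 0 in every leave-one-out fit and 1 with a mean of at least 1 CPM. The change between hairpins called 30 genes in the unpaired fit, and 8 to 51 in that fit with 1 library left out. With the replicate block, which pairs the arms, the test called 1060. The cause of the gap was not tested.

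Across lines, same-numbered shNT libraries did not deviate together (18 correlations, -0.193 to 0.27, 4 of them over 0.1), so the numbers do not pair them. A replicate block there gave 1422 higher and 1743 lower genes. No called value reversed under the alternatives run, and the calls lost for single named genes are given beside them. ADAR, which did not meet the rule, had a class difference near 0 whose sign changed in 16 of 20 settings. Depth limits genes with few reads, among them the miR-200 transcripts.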

Other observations

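Genes meeting the rule were unevenly spread over chromosomes, a pattern picked out after the values were seen and given without a test. Of all genes tested, 7.35% were higher and 9% lower. On chromosome 22, 9 of 474 tested genes were higher (1.9%) and 92 lower (19.4%), and on chromosome 21, 8 of 240 were higher (3.33%) and 37 lower (15.4%). Chromosome 13 leaned the other way, with 43 higher (12%) and 14 lower (3.91%), as did chromosome 20 with 65 higher (12.1%) and 26 lower (4.84%). Chromosomes 4 and 8 (11.6% and 11.7% higher) and 6 and 7 (14.2% and 14.3% lower) leaned as well. On chromosomes 13, 20 and 21, single lines weighed in this. The median gene difference of BT549 minus MDAMB231 was 0.704 on chromosome 13 and 0.476 on chromosome 20. That of MDAMB231 minus HCC1806 was -0.105 and -0.0626, and on chromosome 21 that of BT549 minus HCC1806 was -0.0193. On chromosome 22 the medians of the 4 cross-class pairs were all negative (-0.158, -0.406, -0.356 and -0.61). Those of chromosome 7 were also all negative and those of chromosome 4 all positive, while chromosomes 6 and 8 were mixed. DNA copy number was not measured.

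Of 64 histone genes tested, 8 were higher, 11 lower and 45 not called, with a median class difference of 0.157; of all genes tested, 7.35% were higher and 9% lower. H1-5 averaged 0.958, 0.0288, 310 and 344 CPM and H3C11 0.116, 0.367, 147 and 123, while the summed histone level lay between 3823 and 6471 CPM over the 12 libraries. H1-3 was near 0 in MDAMB231 but in no other line (93.7, 0.0989, 154 and 91.1 CPM). Other chromosome 6 histone genes had this shape, H4C5 for example (142.5, 0.1133, 135.4 and 151.2 CPM). Some genes counted as lower also had it, such as H2BC9 (51.4, 0.0216, 100.4 and 107.8 CPM). Reads of histone paralogues may be split among near-identical copies.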
